A study of Caenorhabditis elegans with 2 samples.

Results

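Mitochondrial ribosomal protein genes were examined for binding of HIM-1, the SMC1 subunit of cohesin, in whole Caenorhabditis elegans. The members were all protein-coding genes whose Ensembl symbol starts with mrpl- or mrps-, which gave 70 of 19973 nuclear protein-coding genes, 41 named for the large and 29 for the small subunit of the mitochondrial ribosome. Chromatin immunoprecipitation followed by sequencing (ChIP-seq) had been carried out on 1 group of hermaphrodites of strain YL576, a transgenic line that stably expresses HIM-1 with GFP and FLAG fused to its C terminus. The worms were collected as L4 larvae and young adults, 51 hours after release from synchronization as starved L1 larvae, in 2 biological replicates. The labels disagree on the antibody, which is given as directed against GFP in the description and as him-1 in a separate field. Since all samples form a single group, and no immunoprecipitation from untagged worms was analysed here, no test between groups could be made and all values are descriptions. The signal is an average over all tissues of the worm, so more bound cells and more binding per cell cannot be told apart.

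The mitochondrial ribosome translates the few proteins that the mitochondrial genome encodes, which are subunits of the respiratory chain and the ATP synthase. Its RNAs are encoded in the mitochondrial genome, while its proteins are encoded in the nucleus, made in the cytosol and imported. In C. elegans, lower expression of some of these genes, mrps-5 among them, is known to activate the mitochondrial unfolded protein response and to extend lifespan. Cohesin is a ring-shaped complex that holds sister chromatids together and also shapes chromatin loops. Many C. elegans genes lie in operons, in which 1 upstream promoter serves several genes on the same strand, and many transcripts are trans-spliced, so an annotated 5' end may lie downstream of the true start of transcription.

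The RefSeq product of 69 of the 70 members named a ribosomal protein or a ribosomal protein domain. The exception was mrps-27, whose product named an Ig-like domain. The product of mrps-18C named a large-subunit protein, and that of mrpl-48 a small-subunit domain; subunits are given here by symbol. The members lay on chromosome III (22), I (15), II (12), IV (11) and V (10), and none on X.

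Each deposited entry has a signal value, the authors' own measure of peak height, on an unstated scale. The optimal list held the 1797 reproducible peaks, with signals from 102.0 to 1042 and a median of 144. The pooled list (12228 entries) and the lists of replicate 1 (16213) and replicate 2 (15469) also hold background entries, and ranks below count from the highest signal within a list. The read depth behind the signals is unknown. The 2 replicate lists differ in scale, with a median ratio of replicate 1 to replicate 2 of 1.41 over all optimal peaks, so ratios between them are of the signals as deposited and are to be read against that value. A peak was assigned to each gene with an annotated 5' end at most 1000 bp from its summit, and negative distances are upstream.

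Optimal HIM-1 peaks were found at 11 members (15.7%), 1 peak at each, compared with 6.08% of all protein-coding genes and 5.96% of those on autosomes. The difference varied by chromosome. On III, which held the most members, the share was 9.09%, close to the 8.86% of all genes there. It was 20% against 8.93% on I and 8.33% against 5.51% on II. On IV it was 27.3% against 5.18%, and on V 20% against 3.52%. Each of these shares rests on 1 to 3 members with a peak. Large-subunit genes accounted for 8 of the 11 (8 of 41, 19.5%) and small-subunit genes for 3 (3 of 29, 10.3%); this difference was not tested. All 11 summits lay upstream of the member, as did those of 1062 of the 1214 protein-coding genes with an optimal peak. By distance these optimal summits formed 2 sets: 6 lay within 250 bp (98 to 217 bp) and 5 lay 532 to 998 bp away, so that 250 to 500 bp held none. That gap was not empty in the single replicates. The replicate 1 summit at mrpl-12 lay 481 bp upstream, and the replicate 2 summit at mrpl-18 lay 310 bp upstream. With summits limited to 500 bp or to 250 bp, the same 6 members remained (8.57%), while the share of all genes was 4.5% and 2.85%. At either limit, 5 of 41 large-subunit genes (12.2%) and 1 of 29 small-subunit genes (3.45%) remained, the latter below the share of all genes at 500 bp. With replicate 2 left out, and the 1797 highest entries of replicate 1 used as the peaks, 7 members had a summit within 1000 bp (10%, against 5.8% of all genes).

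The sequences at 6 of these summits are shown to let the compact upstream regions be read beside the values, 5 from proximal peaks and, last, that of mrps-28, whose summit lay beside a small nucleolar RNA gene. Each is 121 bases of WBcel235 (RefSeq copy) centred on the summit and written 5' to 3' on the member's strand, and capitals mark matches to the motifs described further on. They lie at II:156074-156194 (mrpl-28, minus strand), III:8144738-8144858 (mrpl-18, plus), IV:14767829-14767949 (mrps-7, minus), IV:443827-443947 (mrpl-55, plus), V:12728439-12728559 (mrpl-49, plus) and V:19643181-19643301 (mrps-28, plus).
mrpl-28: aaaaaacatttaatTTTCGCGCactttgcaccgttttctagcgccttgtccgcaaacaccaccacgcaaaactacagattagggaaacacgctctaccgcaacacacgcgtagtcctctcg
mrpl-18: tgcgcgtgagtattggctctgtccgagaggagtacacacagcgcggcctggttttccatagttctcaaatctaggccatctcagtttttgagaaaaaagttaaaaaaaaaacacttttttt
mrps-7: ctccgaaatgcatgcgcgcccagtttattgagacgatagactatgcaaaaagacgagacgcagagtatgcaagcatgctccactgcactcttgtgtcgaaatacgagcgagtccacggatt
mrpl-55: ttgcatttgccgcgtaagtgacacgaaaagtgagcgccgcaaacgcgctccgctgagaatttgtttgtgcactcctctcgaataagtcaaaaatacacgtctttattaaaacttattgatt
mrpl-49: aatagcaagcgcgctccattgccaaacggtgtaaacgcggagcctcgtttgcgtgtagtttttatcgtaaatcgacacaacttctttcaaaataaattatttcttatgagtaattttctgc
mrps-28: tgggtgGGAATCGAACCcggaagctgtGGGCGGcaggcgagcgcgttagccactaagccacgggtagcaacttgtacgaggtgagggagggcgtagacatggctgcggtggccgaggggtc

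**Figure D1:**
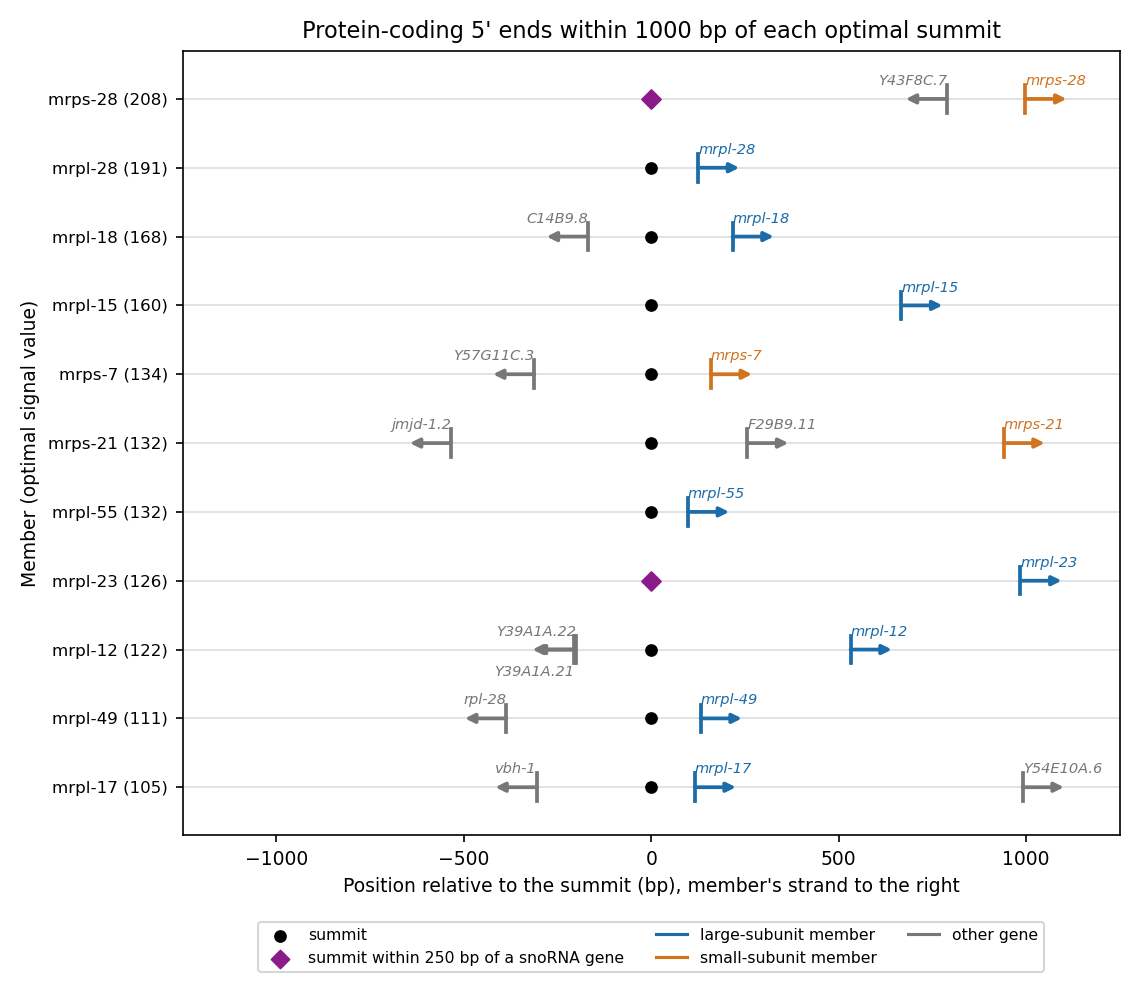
Protein-coding 5' ends (ticks, with arrows in the direction of transcription) within 1000 bp of each of the 11 optimal summits, by position relative to the summit in bp, with the member's strand drawn to the right. Rows are ordered by optimal signal value, and diamonds mark the 2 summits within 250 bp of a snoRNA gene. In 6 rows the member's own 5' end lies within 250 bp of the summit, and in 7 rows at least 1 other gene has a 5' end in the window.

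Among members with a proximal peak, mrpl-28, which encodes a large-subunit protein with a bacterial counterpart, had the highest signal. Its peak (II:155899-156368; WBGene00020796) had a signal of 191 and rank 473 in the optimal list, with 108 in replicate 1 and 84.5 in replicate 2. The summit lay 125 bp upstream, and 141 and 100 bp upstream in the replicates. No other protein-coding 5' end lay within 1000 bp, and the next gene upstream, etr-1, was 6364 bp away. mrpl-28 was thus 1 of 4 members whose peak had no second protein-coding 5' end in the window, with mrpl-55, mrpl-15 and mrpl-23. The mrpl-23 summit nevertheless lay inside another gene, in an intron of fars-1.

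The mrpl-55 peak (IV:443652-444121; WBGene00022045) was the closest to its gene, 98 bp upstream, with a signal of 132 and rank 1096. Its signal was 85.7 in replicate 1 and 44.4 in replicate 2, the highest of the 11 ratios as deposited, 1.93. Its product belongs to the mitochondrial large subunit and has no bacterial counterpart.

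At mrpl-18, a large-subunit protein gene, the peak (III:8144563-8145032; WBGene00017044) had a signal of 168 and rank 663, with 102 in replicate 1 and 65.2 in replicate 2. The summit lay in the 385 bp between mrpl-18, 217 bp away, and the divergent gene C14B9.8, 169 bp away. The summits of replicates 1 and 2 lay 216 and 310 bp upstream of mrpl-18, which is the longer side of that gap in both.

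Other proximal peaks also lay between divergent genes. The mrps-7 peak (IV:14767654-14768123; WBGene00013324), at a gene for a small-subunit protein that in bacteria binds ribosomal RNA, had a signal of 134, with 83.2 and 50.1 in replicates 1 and 2. Its summit was 159 bp upstream of mrps-7 and 312 bp upstream of Y57G11C.3. The summits of both replicates, 163 and 134 bp upstream, were likewise closer to mrps-7.

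The mrpl-49 peak (V:12728264-12728733; WBGene00011247) lay between a mitochondrial and a cytosolic ribosomal protein gene. Its signal was 111 (rank 1532), with 60.3 and 48.5 in replicates 1 and 2. The summit was 132 bp upstream of mrpl-49 and 387 bp upstream of rpl-28, a gene of the cytosolic large subunit. The peak is therefore counted at both ribosomal protein lists.

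The lowest of the 11 peaks was at mrpl-17 (I:3162462-3162931; WBGene00021829), with a signal of 105 and rank 1706 of 1797, and 54.1 and 51.3 in replicates 1 and 2. Its summit was 116 bp upstream of mrpl-17 and 306 bp upstream of vbh-1, which encodes a DEAD-box RNA helicase. It stood just above the lowest optimal signal, 102.0.

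The highest signal of all 11 was at mrps-28 (V:19643006-19643475; WBGene00012830), which encodes a small-subunit protein, but its summit was the farthest from the member. The signal was 208 (rank 378), with 104 in replicate 1 and 98.7 in replicate 2. The summit lay 998 bp upstream of mrps-28, just inside the window, and that of replicate 1 lay 1016 bp upstream, just outside it. It lay in an intron of the neighbouring gene Y43F8C.7, 789 bp downstream of that gene's 5' end, and 54 bp from the snoRNA gene Y43F8C.22 (V:19643050-19643187).

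The mrpl-23 peak (I:6212635-6213104; WBGene00020348) had the same features. Its signal was 126 (rank 1206), with 71.2 and 47.5 in replicates 1 and 2. The summit lay 985 bp upstream of this large-subunit gene, in an intron of fars-1, a phenylalanyl-tRNA synthetase gene, 46 bp from the snoRNA gene T08B2.13. It also lay inside an annotated pseudogene, WBGene00023344, which RefSeq describes as one of a tRNA. Of all optimal peaks, 66 (3.67%) lay within 250 bp of a snoRNA gene, and 206 (11.5%) within 250 bp of a snoRNA or tRNA gene. Without the latter, a comparison chosen after seeing the data, 9 members (12.9%) had an optimal peak, against 5.58% of all genes.

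The other distal peaks were at mrpl-15, mrps-21 and mrpl-12. At mrpl-15 (I:1435377-1435846; WBGene00022373), a large-subunit gene, the signal was 159.7, with 77.9 and 75.0 in replicates 1 and 2, and the summit was 667 bp upstream. Its own 5' end was the only one within 1000 bp, and the next gene upstream, Y92H12BR.3, ended 11077 bp away. The summits of the replicates, 668 and 680 bp upstream, were within 13 bp of the pooled one.

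The mrps-21 peak (IV:4660222-4660691; WBGene00017924) lay ahead of a pair of closely spaced genes. Its signal was 132, with 60.4 and 57.3 in replicates 1 and 2. The summit was 256 bp upstream of F29B9.11, the gene that precedes mrps-21 on the same strand with a gap of 113 bp, and 940 bp upstream of mrps-21 itself, the small-subunit gene. It was also 534 bp upstream of jmjd-1.2, a histone demethylase gene on the other strand.

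At mrpl-12, whose product forms the flexible stalk of the large subunit in bacteria, the peak (III:10706994-10707463; WBGene00012361) had a signal of 122. It was the only one of the 11 with the higher deposited signal in replicate 2, 64.6 against 54.0 in replicate 1, a ratio of 0.835. The summit lay 532 bp upstream of mrpl-12, and closer to Y39A1A.22 and Y39A1A.21 on the other strand, 201 and 207 bp away.

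Over all 11 peaks, the nearest protein-coding 5' end was that of the member in 7 and that of a neighbour in 4 (mrps-28, mrpl-18, mrps-21 and mrpl-12). At least 2 genes shared 7 of the 11 peaks. Of the 1006 optimal peaks within 1000 bp of any gene, each counted once, 29% had 2 or more genes. These shares are not directly comparable. The 11 peaks were reached through genes, and a peak shared by several genes is reached more often that way. Counting only the gene nearest to a summit, a rule chosen after seeing the data, left 7 members (10%), against 4.63% of all protein-coding genes.

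The peaks were of moderate height. Their median signal was 132, below the 144 of all optimal peaks and the 150 of all genes with an optimal summit, and 4 of the 11 were in the upper part of the list by rank (mrps-28, mrpl-28, mrpl-18 and mrpl-15). Replicate 1 gave the higher signal in 10 of the 11, with a median ratio of 1.24, and in 89.7% of all optimal peaks, with a median ratio of 1.41. All 11 were among the 1797 highest entries of replicate 2, and 7 among those of replicate 1. All 1797 optimal peaks, and so these 11, overlapped an entry in both replicates. The optimal list was itself derived from both replicates, so this overlap is not independent support. For the 11 the overlap also held when at least 50% of both intervals had to be shared. The peaks of both replicates were derived with 1 shared control file, per the deposited notes, so the calls are not fully independent.

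**Figure D2:**
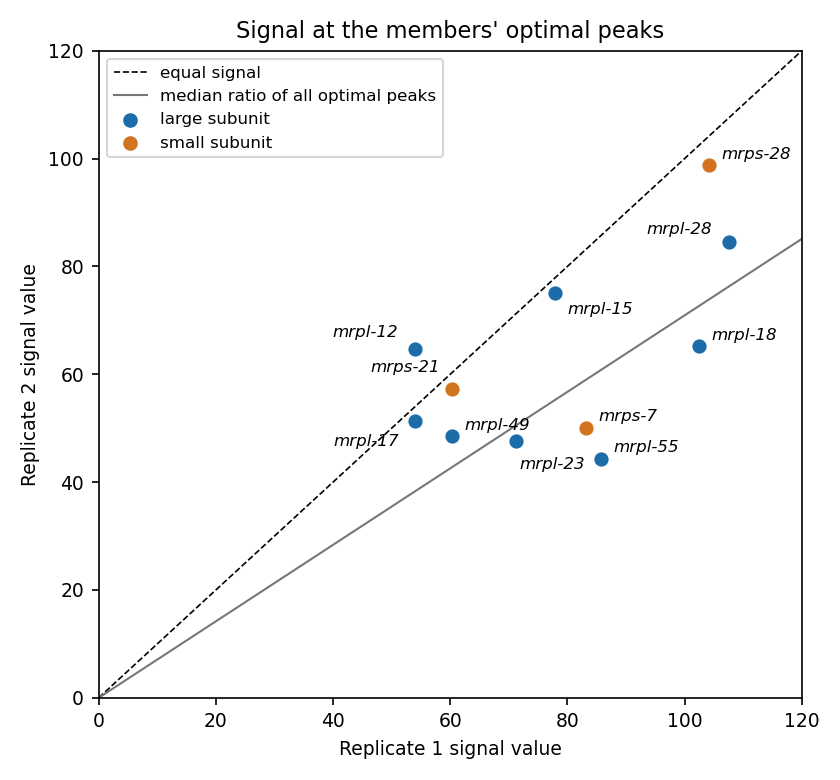
Signal value in replicate 1 (x axis) and replicate 2 (y axis) at the 11 optimal peaks, on linear scales from 0, coloured by subunit. The dashed line is equal signal and the grey line the median ratio of all optimal peaks (1.41); 10 peaks lie under the dashed line and mrpl-12 above it.

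Below the optimal threshold, a further 23 members had an entry in the pooled list, which includes background. In all, 34 of 70 members (48.6%) had one, compared with 25.2% of all protein-coding genes. The replicate 1 list had an entry at 34 members (48.6%, against 29.9%), the replicate 2 list at 35 (50%, against 31.5%), and 26 (37.1%, against 20.4%) had one in both.

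The highest of these was at mrps-16, a small-subunit gene, with a pooled signal of 95.6 and rank 2009. Replicate 1 gave 69.8 and replicate 2 only 21.8, ranks 1391 and 9387, and the summit was 213 bp upstream. mrps-16 thus entered the peaks when replicate 1 alone was used. At mrps-35, of the small subunit, the pooled signal was 88.6, with 44.8 and 45.8 in the replicates. Its summit was 159 bp upstream and only 3 bp from the 5' end of sws-1, so it was closer to that gene.

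mrpl-1 and mrps-24, a large- and a small-subunit gene on opposite strands whose 5' ends are 344 bp apart, shared 1 entry (IV:7709725-7710194). Its pooled signal was 75.6, with 48.4 and 30.8 in the replicates, and the summit was 259 bp upstream of mrpl-1 and 85 bp upstream of mrps-24. It was also 224 bp upstream of emc-6, which overlaps the start of mrpl-1 on the same strand and encodes a subunit of the endoplasmic reticulum membrane complex. Another pair of neighbouring members, mrps-2 and mrpl-4, follow each other on V with 5' ends 1579 bp apart; mrps-2 had no entry and mrpl-4 a pooled signal of 46.9.

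Of the other large-subunit genes, mrpl-22 had a pooled signal of 77.6 with its summit 32 bp upstream, from replicate 1 (59.4), and no entry of replicate 2 overlapped it. mrpl-45, whose mammalian counterpart ties the ribosome to the inner membrane, had 73.0 (49.6 and 24.3 in the replicates), 327 bp upstream and at -211 bp from Y119D3B.12. mrpl-32 had 68.7 (36.4 and 29.1), 412 bp upstream. Of the small subunit, mrps-10 had 69.9 (40.5 and 29.9), 298 bp upstream and at -262 bp from npp-25, a nuclear pore gene. The remaining 15 pooled entries had signals of 43.9 to 67.7.

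**Figure D3:**
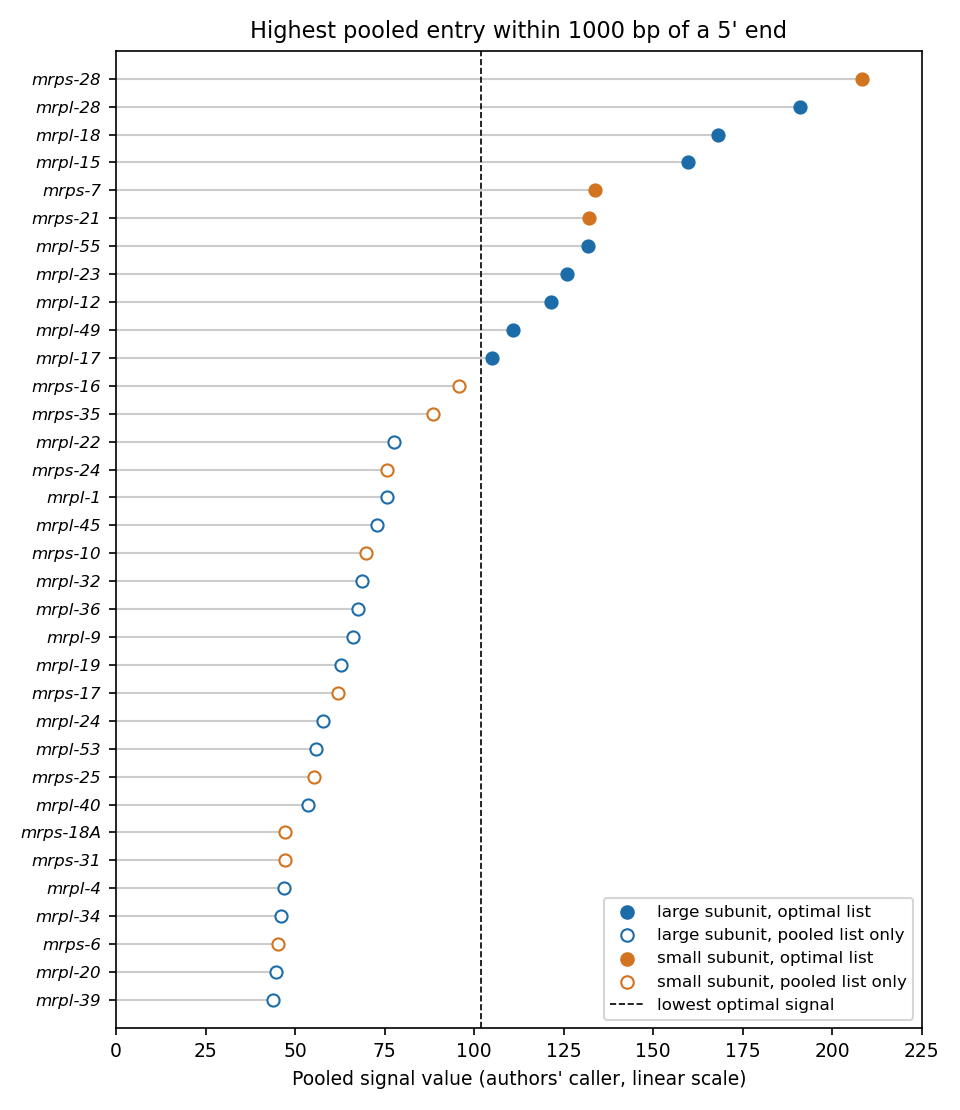
Signal value of the highest pooled entry within 1000 bp of a 5' end for the 34 members that had one, on a linear scale from 0, coloured by subunit. Filled points are in the optimal list (105 to 208) and open points only in the pooled list (43.9 to 95.6), and the dashed line is the lowest optimal signal, 102.0.

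A total of 10 members had an entry in 1 replicate's list alone. No share of all genes is given beside this count, so it is not read as a feature of the members. A further 26 members (37.1%) had none in any of the 4 lists, compared with 58.6% of all protein-coding genes. In the large subunit these 11 were mrpl-11, mrpl-13, mrpl-30, mrpl-37, mrpl-38, mrpl-42, mrpl-44, mrpl-46, mrpl-48, mrpl-51 and mrpl-54. In the small subunit these 15 were mrps-2, mrps-5, mrps-9, mrps-11, mrps-12, mrps-14, mrps-18.C, mrps-18C, mrps-22, mrps-23, mrps-26, mrps-27, mrps-30, mrps-33 and mrps-34. An absent entry says that no peak was listed there, at an unknown depth, and not that HIM-1 was absent.

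Most members had a close neighbour upstream. The gene next upstream lay on the same strand with a gap of at most 1000 bp, as in operons, for 34 members (48.6%, against 29.9% of all genes). It was divergent, with 5' ends at most 1000 bp apart, for 26 (37.1%, against 18%). Only 9 members (12.9%, against 48.5%) had neither arrangement, and mrps-23 lay inside prp-40.

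Optimal peaks were found mainly at members outside the close same-strand arrangement. They were present at 2 of the 34 close same-strand members (5.88%, mrpl-23 and mrps-21), against 3.9% of all genes of that class. Divergent members had one in 6 of 26 cases (23.1%, against 12.5%), and the remaining 9 in 3 cases (33.3%, against 5.15%), mrpl-15, mrpl-28 and mrpl-55. Not all peaks of divergent members lay closest to the member. The mrps-28 summit lay inside its neighbour Y43F8C.7, and those of mrpl-18 and mrpl-12 were nearer to the divergent gene. Pooled entries were at 10 of 34 (29.4%, against 22.7%), 18 of 26 (69.2%, against 35.1%) and 6 of 9 (66.7%, against 23.3%).

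**Figure D4:**
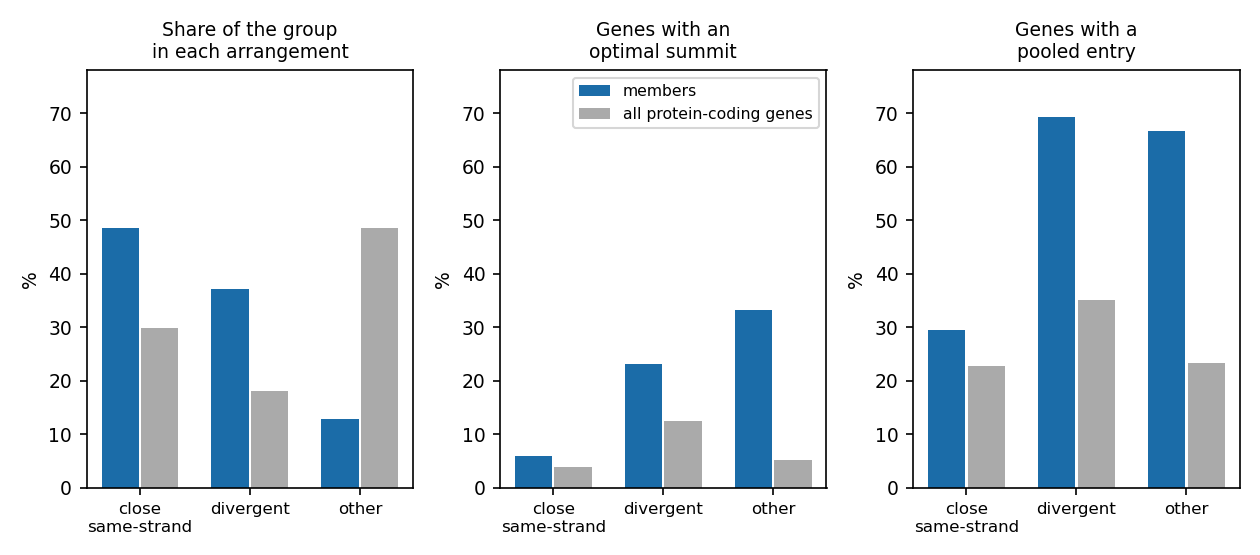
Members (blue) and all protein-coding genes (grey) by arrangement of the next gene upstream: the percent of each group in the arrangement (left), and the percent of that class with an optimal summit (middle) or a pooled entry (right) within 1000 bp. Close same-strand members had optimal summits in 5.88% of cases and divergent ones in 23.1%; the 1 member inside another gene is not drawn.

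Because a promoter of an operon lies ahead of its first gene, the first gene of each run of close same-strand genes was also examined, a step added after seeing the data. Of the 32 close same-strand members without an optimal peak of their own, 6 (18.8%) had one within 1000 bp of the 5' end of that first gene, compared with 8.16% of all such genes. For mrpl-54 it was at clsp-1, the claspin gene of the replication checkpoint, with a signal of 249, and for mrps-14 at nrde-2, a nuclear RNA interference gene, with 184. For mrpl-32 it was at rpn-3, a proteasome gene, with 156, for mrps-12 at num-1, with 133, for mrps-26 at atp-2, an ATP synthase gene, with 106, and for mrpl-46 at ech-5, also with 106. These summits were 2598 to 9087 bp from the member. Whether these runs are operons was not tested.

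Around the members' summits, GC made up a median of 41.8% of the bases within 100 bp (32.8 to 52.2%), compared with 45.8% over all 1797 and 45.3% over those within 1000 bp of a 5' end. The highest value, 52.2%, was at mrps-28 and the lowest, 32.8%, at mrpl-49. In the shorter printed sequences the GC content was 65.3% for mrps-28 and 38.8% for mrpl-49.

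Matches to the motifs searched were few. The E2F-like word GCGCGAAA was found at 1 of the 11 summits, that of mrpl-28, where it stands as TTTCGCGC in the printed sequence, and at 2.23% of all optimal summits. GAGAGA was at 1 (mrpl-15), compared with 43.9% of all, and the Sp1-like GGGCGG at 1 (mrps-28), compared with 11.2%. The tRNA B box was at 2, compared with 6.46%, and these were the mrps-28 and mrpl-23 summits beside snoRNA genes; in the mrps-28 sequence it is read on the opposite strand. The GATA-like TGATAA was at 2 (mrpl-15 and mrps-7), compared with 6.34%. The E-box CACGTG and the CRE, TGACGTCA, were at none, compared with 4.06% and 1.56%. All were exact matches on either strand within 100 bp of the summit, they can overlap each other, and GAGAGA can match several times in 1 repeat.

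Other nuclear genes for mitochondrial proteins gave a range of shares. Translation and expression factor genes of the organelle had an optimal summit within 1000 bp in 2 of 24 cases (8.33%), at ears-2, a glutamyl-tRNA synthetase gene (signal 171), and tufm-2, an elongation factor gene (108), both closer to the 5' end of a neighbour. dap-3, which encodes a further protein of the small subunit but does not carry an mrps- symbol, is in this list and had none; it directly precedes mrps-22, with a gap of 105 bp. Respiratory chain and ATP synthase genes had one in 14 of 56 (25%), led by cox-5A (452), cox-5B (386) and cox-6A (218), all of cytochrome c oxidase. Import and protein quality control genes had one in 8 of 25 (32%), led by the chaperonin gene hsp-60 (308), the import receptor gene tomm-20 (224.5) and ddp-1 (212), which encodes a small import chaperone. The hsp-60 summit was 601 bp upstream and closer to the 5' end of Y22D7AL.10. Some lower peaks of this and the respiratory list were also closer to a neighbour. With a limit of 250 bp, the shares were 12% for import and 10.7% for respiratory genes, against 2.85% of all genes.

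Cytosolic ribosomal protein genes, by contrast, had an optimal summit within 1000 bp in 42 of 78 cases (53.8%), and the median of their signals was 161, against 132 at the mitochondrial ribosomal protein genes. The highest were rpl-3 (1042), rpl-15 (842) and rpl-35 (756), each several times the highest of the members. In this list, too, some peaks were closer to the 5' end of a neighbour, and some were shared by a pair of its genes. The median distance of the cytosolic genes' summits was -311 bp, against -217 bp at the members. The members were not closer throughout. A summit lay within 500 bp at 38 of the 42 cytosolic genes, but at only 6 of the 11 members. With a limit of 250 bp, the share of cytosolic genes fell to 12.8%, beside 8.57% of the members. The lists were set side by side without a test.

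**Figure D5:**
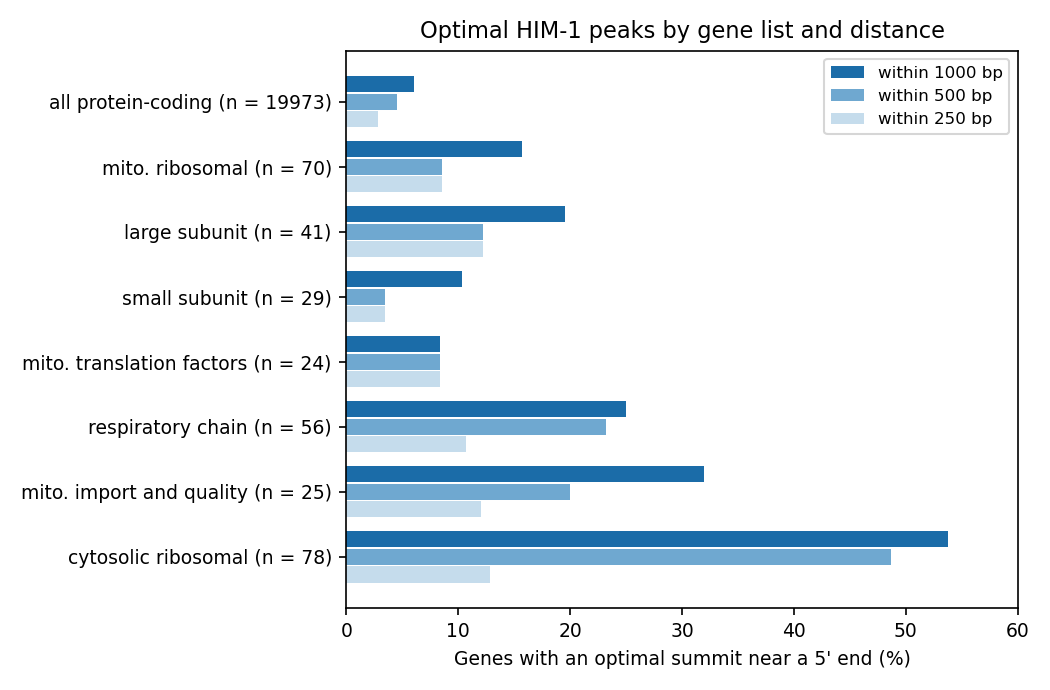
Percent of genes with an optimal summit within 1000, 500 or 250 bp of a 5' end (dark to light bars), for all protein-coding genes, the members and their subunits, and 4 related gene lists, with the number of genes in each. The members stand at 15.7, 8.57 and 8.57%, above all genes at each distance, and the cytosolic ribosomal protein genes at 53.8, 48.7 and 12.8%.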

How the data were processed

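The files used were 4 narrowPeak lists in the ce11 build, made by the authors: 1 list for each replicate, a pooled list and an optimal list thresholded by the irreproducible discovery rate, per the text deposited with the samples. The signal value of each peak and its −log10 q-value are as deposited by the authors, and 1284 optimal peaks share the highest −log10 q-value, 3.41, so peaks were ranked by signal. For the aligner and the peak caller, nothing is stated in the sources used here. Lists in ce10 were not used.

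Summits (start plus offset, counted from 1) were set against Ensembl release 115 gene positions (WBcel235, the assembly also called ce11; all entries lay within its chromosomes), and sequence and products came from RefSeq. Distances run to the nearest 5' end of any protein-coding transcript of a gene. Summit assignment was checked on simulated positions, with all 200 recovered. A replicate's value at a peak is that of its highest entry overlapping by at least 1 bp.

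The members, gene lists and motifs were chosen with earlier results of these data known. In the lists of symbols, 24 of 32 factor genes and 25 of 26 import genes were matched. The text names every member with an optimal peak, the 8 with the next highest pooled signal, every member without an entry, and the 3 highest of each list. Python 3.11.15, NumPy 2.4.6 and matplotlib 3.10.9 were used.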

Additional observations from a re-analysis of the deposited data

How the results depend on the processing

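The count of 11 members with an optimal peak (15.7%, against 6.08% of all genes) was 6 with summits limited to 500 bp or 250 bp (8.57%, against 4.5% and 2.85%). It was 4 in the part of the optimal list with the highest 50% of signals (5.71%, against 3.2%). When only the nearest gene was counted, it was 7 (10%, against 4.63%). It was 12 without replicate 1 (17.1%, against 6.29%) and 7 without replicate 2 (10%, against 5.8%). Without replicate 1, mrps-35 was gained. Without replicate 2, mrpl-12, mrpl-17, mrpl-49, mrps-21 and mrps-28 were lost and mrps-16 was gained. Of the lost members, mrps-28 had a high rank in replicate 1 (601). It dropped out because its summit there lay 1016 bp upstream, outside the window. Over all protein-coding genes, 1214 became 569 at 250 bp and 640 in the stricter part. The median signed distance of the members' summits, -217 bp, was -128.5 bp at 500 bp and at 250 bp and -442 bp in the stricter part, where the member was the nearest gene for 2 peaks. The genes of the other 3 mitochondrial lists with a peak, 24 in all, numbered 11 at 250 bp and 13 in the stricter part. Pooled entries were at 21 members at 250 bp (30%, against 11.9% of all genes), and entries of both replicates at 12 (17.1%, against 8.12%). Fewer peaks or a shorter window can only lower these counts. The other 28 recomputed values stayed within 1.5 times the main count, or within the spread of the replicates for the median distance. No paired analysis was possible because there was 1 group. The lists hold no read counts, so depth could not be weighed.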
